A study of Mus musculus with 4 samples.

Results

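The regions described here were open in mouse fibroblasts undergoing conversion towards neural stem cells and in embryonic stem cells, and had no listed peak in fibroblasts or induced pluripotent stem cells. Open chromatin had been mapped with ATAC-seq, where an enzyme cuts and tags accessible DNA, with 1 library for each of 4 cell populations. Peaks of the 4 lists on the 19 autosomes were pooled, and neighbours whose Start minus the previous End was at most 10 bp were joined. Regions count as open where the library lists at least 1 peak inside them and as closed elsewhere, so closed means that no peak was listed and is not a measurement of accessibility. Of 168348 regions, 3707 were open in the intermediate and in ESC and closed in MEF and iPSC.

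The MEF library came from mouse embryonic fibroblasts and the iPSC library from induced pluripotent stem cells, and the labels give A12 (Mbd3 flox/-) as strain and transgene of both. The ESC library came from the v6.5 embryonic stem cell line. The intermediate was an early step of OSKM-driven transdifferentiation to neural stem cells, made from fibroblasts labelled B6/129 that carried Rosa26-TdTomato from a B6 mother and Col1a-OSKM, a doxycycline-driven cassette of Oct4, Sox2, Klf4 and Myc, from a 129 father. They also held a Nanog-driven CreER, so that tdTomato marks cells in which Nanog had been active while 4-hydroxytamoxifen was present. Doxycycline and 4-hydroxytamoxifen were kept on the cells until day 9 with a JAK1 inhibitor, and tdTomato-positive cells were sorted without feeders. The title of the intermediate gives day 9, while its source field names another day. The culture text describes the intermediate only, and each population is 1 library with no replicate. MEF and iPSC share a strain label that neither the intermediate nor ESC carries, so the split that defines these regions is also the split by strain label, and the cell states and the strain label cannot be told apart.

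In pluripotent cells most cell-type-specific accessible sites lie away from promoters, at enhancers. Oct4 and Sox2 bind many of them, Oct4 through the octamer sequence, and Klf4 binds GC-rich and CACCC-like elements. During factor-driven reprogramming, fibroblast enhancers, many of them bound by AP-1 factors, lose accessibility, epithelial genes become active early, and parts of the pluripotency network open at different times. Sox2 also acts in neural stem cells.

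Gene-end peaks (a peak within 1 kb of either end of a gene) were counted at markers of each cell type. Core pluripotency markers with such a peak numbered 12 of 28 in the MEF library, 19 for the intermediate, 25 for iPSC and 24 for ESC. Fibroblast markers gave 26 of 27 in the MEF library, and 16, 16 and 21 in the same order for the others. Epithelial markers gave 3, 13, 12 and 14 of 14 and neural markers 16, 18, 20 and 20 of 20. Myeloid markers gave 4 of 6 for MEF and 2 elsewhere, and endothelial markers 1 or 2 of 5 throughout. The lists held between 125858 and 155064 peaks, with median heights of 30 to 39. Height is a whole number per peak in the authors' files, and whether it was scaled to depth is not stated, so heights of different libraries are printed side by side and not compared. Ranks of height were taken within each list.

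Some of the regions lay over start sites, and the sequences there show the DNA under the peaks. RefSeq promoter windows of GRCm38.p6, the assembly behind mm10, run from 250 bases before to 50 after each start, and the bases before the start are printed 5′ to 3′ on the strand of the gene. The 6 genes whose window held the octamer letters are given first, then Rab25 with a Grhl-type match, then Nodal and the transcript Gm34081, whose regions are described further on and which had none of these letters before the start. Capitals mark ATGCAAAT (octamer), GGGTGTG or GGGCGTG (Klf), TGANTCA (AP-1) and AACCNGTT (Grhl), each on either strand.
Elf1 (chr14:79515424-79515673, plus strand): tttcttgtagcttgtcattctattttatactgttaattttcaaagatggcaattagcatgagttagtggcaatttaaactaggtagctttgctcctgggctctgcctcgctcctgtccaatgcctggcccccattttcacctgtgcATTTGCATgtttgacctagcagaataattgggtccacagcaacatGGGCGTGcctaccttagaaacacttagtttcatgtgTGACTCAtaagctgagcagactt
Plet1 (chr9:50494275-50494524, plus strand): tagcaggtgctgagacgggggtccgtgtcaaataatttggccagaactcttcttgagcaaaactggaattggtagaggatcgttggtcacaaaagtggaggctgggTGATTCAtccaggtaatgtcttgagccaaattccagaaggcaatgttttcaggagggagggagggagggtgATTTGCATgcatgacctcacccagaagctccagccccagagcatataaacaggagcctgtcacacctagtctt
Aldh1a1 (chr19:20601718-20601967, plus strand): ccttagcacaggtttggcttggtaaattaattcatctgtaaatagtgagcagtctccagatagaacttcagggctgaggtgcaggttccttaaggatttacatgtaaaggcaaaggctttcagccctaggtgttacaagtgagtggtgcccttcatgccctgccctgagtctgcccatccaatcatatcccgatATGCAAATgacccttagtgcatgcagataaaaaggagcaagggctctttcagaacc
Ano7 (chr1:93373646-93373895, plus strand): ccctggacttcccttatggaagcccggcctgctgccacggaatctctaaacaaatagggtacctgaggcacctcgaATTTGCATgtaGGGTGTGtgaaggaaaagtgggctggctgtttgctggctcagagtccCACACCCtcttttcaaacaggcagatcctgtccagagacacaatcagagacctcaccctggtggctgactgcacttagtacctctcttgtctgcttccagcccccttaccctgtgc
Gm51802 (chr10:60162392-60162641, minus strand): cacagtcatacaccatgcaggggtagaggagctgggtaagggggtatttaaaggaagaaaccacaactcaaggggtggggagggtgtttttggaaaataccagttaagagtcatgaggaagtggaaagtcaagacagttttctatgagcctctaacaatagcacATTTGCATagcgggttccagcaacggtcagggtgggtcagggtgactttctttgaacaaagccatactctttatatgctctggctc
Prrt3 (chr6:113501932-113502181, minus strand): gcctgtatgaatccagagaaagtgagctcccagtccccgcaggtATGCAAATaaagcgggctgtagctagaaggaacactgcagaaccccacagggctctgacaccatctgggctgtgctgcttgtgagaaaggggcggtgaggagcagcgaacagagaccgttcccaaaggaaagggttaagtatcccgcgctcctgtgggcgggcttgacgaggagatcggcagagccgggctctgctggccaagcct
Rab25 (chr3:88548280-88548529, minus strand): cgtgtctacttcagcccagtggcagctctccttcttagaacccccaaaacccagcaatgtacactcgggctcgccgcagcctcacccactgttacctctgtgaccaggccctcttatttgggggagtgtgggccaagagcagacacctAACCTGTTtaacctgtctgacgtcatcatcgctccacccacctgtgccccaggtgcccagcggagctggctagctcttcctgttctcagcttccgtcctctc
Nodal (chr10:61417722-61417971, plus strand): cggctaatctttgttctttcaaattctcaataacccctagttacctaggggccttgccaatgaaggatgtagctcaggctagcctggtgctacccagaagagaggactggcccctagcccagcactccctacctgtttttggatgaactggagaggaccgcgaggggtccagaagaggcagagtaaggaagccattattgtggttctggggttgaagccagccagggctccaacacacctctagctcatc
Gm34081 (chr12:109526270-109526519, minus strand): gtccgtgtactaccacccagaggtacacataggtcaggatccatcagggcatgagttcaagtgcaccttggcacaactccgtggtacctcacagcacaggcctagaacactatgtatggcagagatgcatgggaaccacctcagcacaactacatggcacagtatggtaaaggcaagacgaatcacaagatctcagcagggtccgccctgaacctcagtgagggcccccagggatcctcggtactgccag
In those 6 octamer windows the letters began 56 to 206 bases before the start. At Elf1, which encodes an ETS-family transcription factor, the first base of the octamer lay 104 bases before the start, where the ESC summit also stood, and the summit of the intermediate lay 79 bases before. At Plet1, a surface protein of the placenta and of epithelial progenitors, it lay 73 bases before the start, and summits were 35 bases before the start in the intermediate and 70 after it in ESC. At Aldh1a1, an enzyme that makes retinoic acid, the octamer began 56 bases before the start, and the summits were at 108 and 53 bases before it. Heights in the intermediate and ESC were 159 and 26 at Elf1, 110 and 27 at Plet1, 144 and 24 at Aldh1a1, 66 and 26 at Ano7, 150 and 60 at the transcript Gm51802, and 36 and 33 at Prrt3. MEF and iPSC had no listed peak in these regions. The nearest iPSC peak was 391 bp from the Plet1 region and 5.11 to 27.2 kb from the other 5. With the taller 50% of each list, 4 of the 6 were no longer members, those at Elf1, Plet1, Aldh1a1 and Ano7.

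Regions of this kind were fewer than those that the intermediate shared with both pluripotent libraries. Their 3707 made up 2.20% of all regions, 5.64% of those open in the intermediate and 5.48% of those open in ESC. Regions open in the intermediate, iPSC and ESC numbered 9900, and those open in the intermediate and iPSC only numbered 3035. The opposite split, open in MEF and iPSC and closed in the intermediate and ESC, held 2264 regions. All values here describe single libraries, without a replicate check and without a test.

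**Figure D1:**
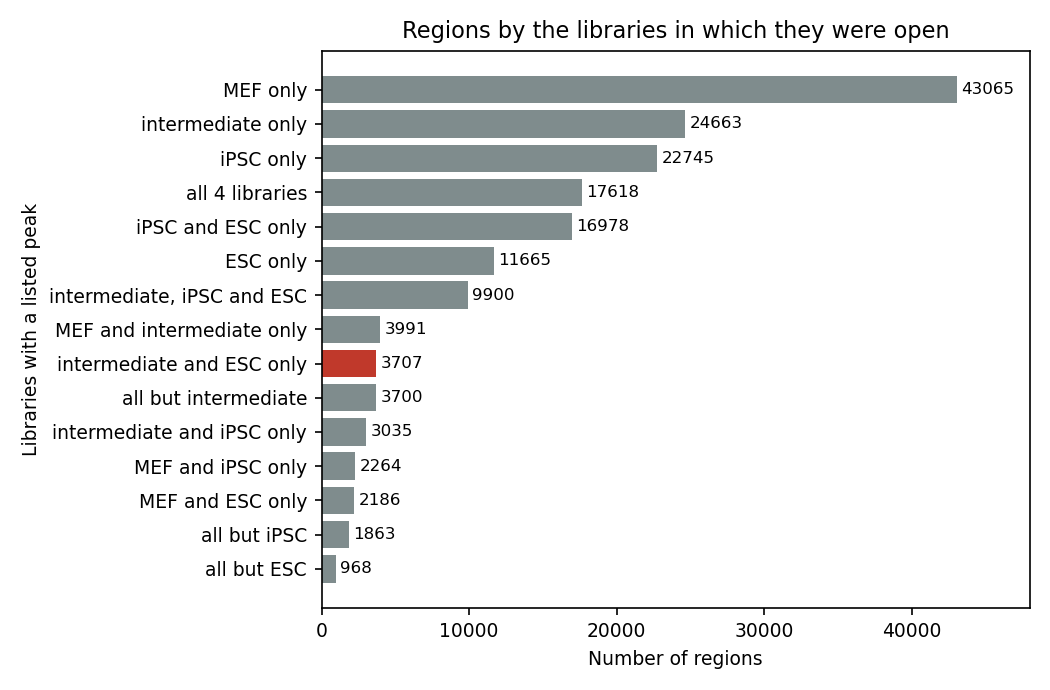
Number of regions (horizontal axis) for each combination of libraries with a listed peak (vertical axis), with 1 library per cell population. The red bar holds the 3707 regions open in the intermediate and ESC only, between the 9900 shared with both pluripotent libraries and the 3035 shared with iPSC only.

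ESC sites that iPSC lacked were found in the intermediate more often than iPSC sites that ESC lacked. Of 15372 regions open in ESC and closed in MEF and iPSC, the intermediate had a peak in 24.1% (Wilson 95% interval 23.4 to 24.8). Of 25780 regions open in iPSC and closed in MEF and ESC, it had one in 11.8% (11.4 to 12.2). This iPSC share was not recomputed under other processing. For ESC, joining only peaks that share 1 bp gave 16.4% in place of 24.1%. Where iPSC and ESC were both open and MEF closed, the share was 36.8% (36.3 to 37.4). Seen from the intermediate, 13.1% (12.7 to 13.5) of its regions without a MEF or iPSC peak were open in ESC, and 10.96% (10.6 to 11.3) of those without a MEF or ESC peak were open in iPSC. Intervals cover counting error over regions only, the depth behind each list is unknown, and these shares restate the rule and are descriptions.

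Taller sites were shared more often. ESC regions without an iPSC or MEF peak were ranked by ESC height and cut into 4 equal parts. The intermediate held 15.7% (14.6 to 16.9) of the lowest of them, then 19.8% and 25.0%, and 35.9% (34.4 to 37.4) of the tallest. Grouped by height in the intermediate, the share also open in ESC ran from 7.57% in the lowest to 19.5% (18.6 to 20.5) in the highest. For iPSC regions without an ESC or MEF peak the rise was from 8.84% to 14.3%. The height of a region is that of its tallest peak. Regions open in the intermediate and ESC only had a median width of 950 bp, against 620 bp for ESC-only and 740 bp for intermediate-only regions. Wider regions can hold more peaks, and how far this sets the rise was not tested.

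**Figure D2:**
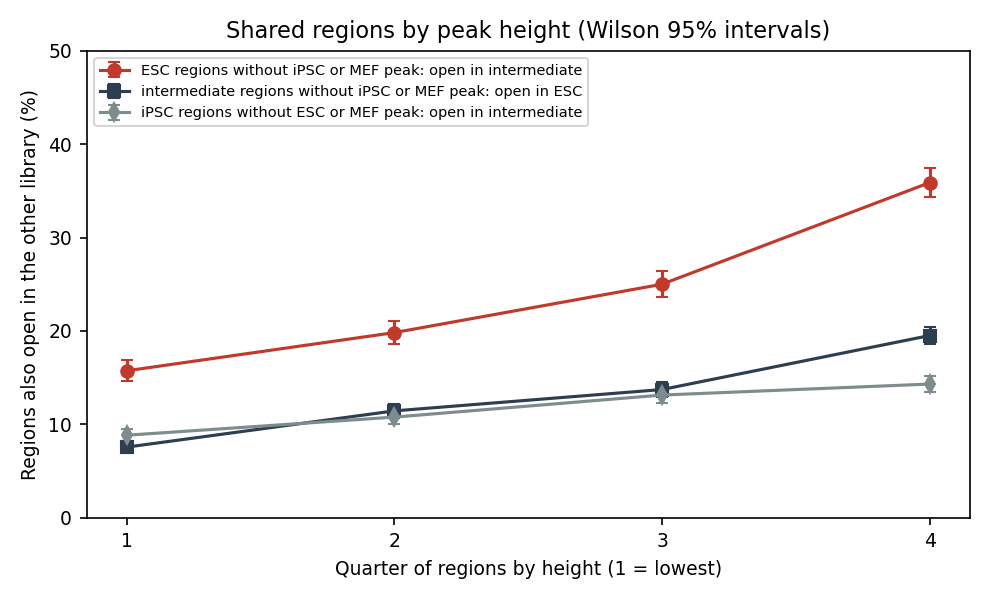
Share of regions also open in the second library (vertical axis, percent, with Wilson 95% intervals over regions) against 4 equal groups of regions ordered by peak height in the library they were taken from (horizontal axis, lowest to tallest). ESC regions without an iPSC or MEF peak reach 35.9% in the tallest group, and iPSC regions without an ESC or MEF peak reach 14.3%. The height of a region is that of its tallest peak, and shared regions are wider.

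The tallest peaks of these regions mostly ranked in the middle to upper part of all listed peaks. All listed peaks include the lower peaks of regions that hold several, so such a rank is not a rank among regions. Heights ran from 6 to 983 in the intermediate with a median of 51, and from 6 to 2390 in ESC with a median of 36. Median ESC height was 30 in ESC-only and 33 in MEF-and-ESC-only regions, and 38 to 92 in the other classes open in ESC. The median percentile rank was 70.7 in the intermediate list and 58.2 in the ESC list, and 71.1% (69.6 to 72.5) of the regions ranked higher in the intermediate. Regions open in iPSC as well had median ranks of 75.6 in the intermediate and 77.3 in ESC. They were also wider, with a median of 1130 against 950 bp, and can hold more peaks. How far width sets these ranks was not tested. In 56.4% of the 3707 regions both ranks lay in the upper part of the lists above 50, and in 29 of them both lay above 90.

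**Figure D3:**
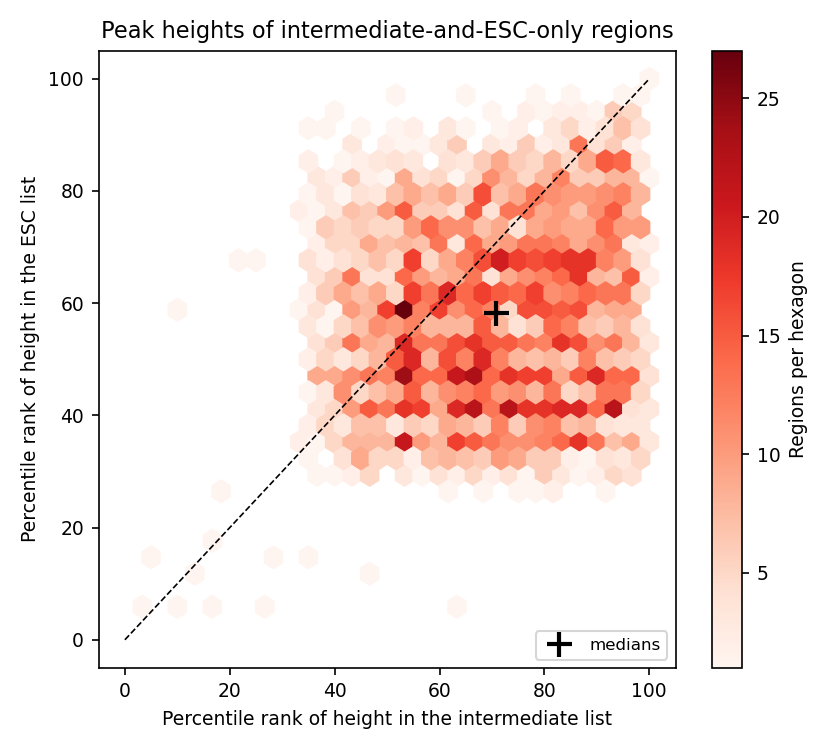
Percentile rank of peak height in the intermediate list (horizontal axis) against that in the ESC list (vertical axis) for the 3707 regions, shaded by regions per hexagon, with a dashed line of equal ranks. The cross marks the medians, 70.7 and 58.2, and 71.1% of the regions lie below the line.

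The peaks of both libraries coincided closely within the regions. Tallest summits were a median of 60 bp apart (quartiles 25 and 120), and in 69.1% (67.6 to 70.5) they were at most 100 bp apart. A median of 621 bases was covered by both lists, and in 7 regions the peaks only adjoined and shared no base. Median width was 950 bp (quartiles 790 and 1150), against 920 bp for regions shared with iPSC only and 1130 bp for those shared with iPSC and ESC. In 28.1% the region held 1 peak of each library, and the others held more than 1 peak of at least 1 of them.

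Membership rests on where peaks were listed. The lowest member, 29.5 kb from Prrx1 on chr1:163344661-163344871, had a height of 6 in both libraries and lay 20 bp from an iPSC peak of height 87. Only 12 members had a height under 20 in the intermediate and 19 in ESC. Just outside the rule, 3 of the 9900 regions open in iPSC too had an iPSC height under 20 and 357 had one under 30. Of 1863 regions that MEF, the intermediate and ESC shared, 1 had a MEF height under 20 and 176 had one under 30. An iPSC peak stood within 50 bp of 21 members and a MEF peak within 50 bp of 15.

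Most members stood clear of peaks in the other libraries. The nearest iPSC peak was a median of 7.06 kb away (quartiles 2.40 and 17.0) and the nearest MEF peak 8.22 kb (2.74 and 23.7). An iPSC peak lay within 500 bp of 5.93% (5.22 to 6.74) and a MEF peak within 500 bp of 5.56% (4.86 to 6.34), and 10.0% had either. For regions that the intermediate shared with iPSC only, an ESC peak lay within 500 bp in 5.21% (4.47 to 6.05), at a median distance of 8.44 kb. Both iPSC and MEF peaks were over 10 kb away from 966 members, 26.1% (24.7 to 27.5).

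**Figure D4:**
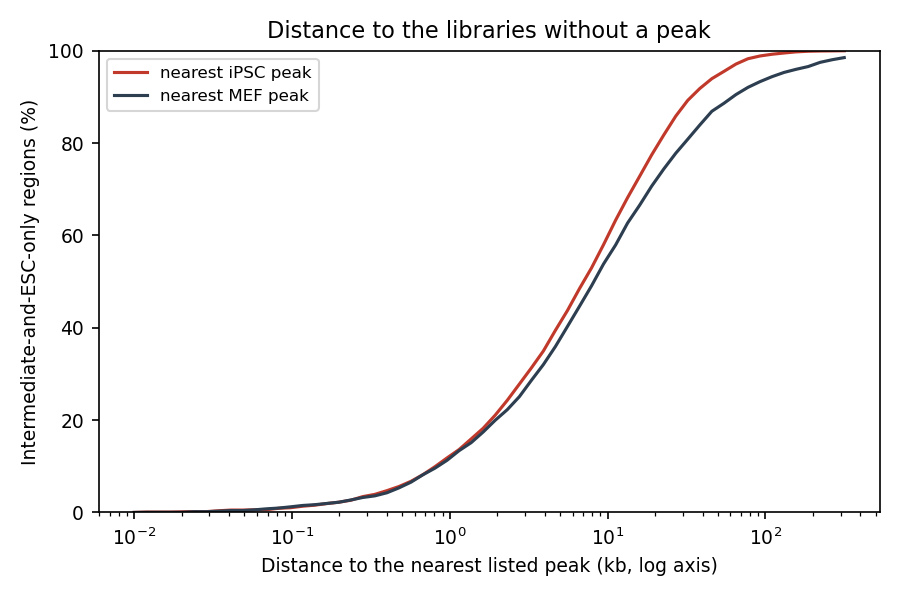
Cumulative share of the 3707 regions (vertical axis, percent) whose nearest iPSC or MEF peak lies within a given distance (horizontal axis, kb, log axis). The medians are 7.06 kb for iPSC and 8.22 kb for MEF, and few regions lie within 0.5 kb of either.

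Position in the genome was not used by the rule. Within 1 kb of an end of a protein-coding gene lay 7.42% (6.62 to 8.31) of the members, against 6.75% (5.92 to 7.70) of regions shared with iPSC only, 6.58% (6.15 to 7.05) of ESC-only and 5.22% (4.95 to 5.503) of intermediate-only regions. The share was 9.25% (8.70 to 9.84) where iPSC was open too. In regions open in all 4 libraries it was 58.7%. Members overlapped a protein-coding gene in 48.3% of cases (46.7 to 50.0), close to the 48.4% of regions shared with iPSC and ESC and below the 55.7% (53.9 to 57.4) of those shared with iPSC only. Exons and introns were not distinguished here. The median distance to a gene end was 18.95 kb.

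The regions were spread over every autosome. They made up from 1.77% (1.46 to 2.14) of regions on chromosome 18 to 2.72% (2.26 to 3.27) on chromosome 19 and 2.68% (2.39 to 3.01) on chromosome 4. Of 2412 windows of 1 Mb with any region, 1652 held a member, and the fullest 2 held 13 each. Neighbouring members without another region between them formed 148 pairs and 10 groups of 3.

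The longest unbroken series lay inside Pitpnc1, which encodes a phosphatidylinositol transfer protein. Here 6 consecutive regions over 19.2 kb from chr11:107347641 to 107366850 were open in the intermediate and ESC with no iPSC or MEF peak among them. In order along the chromosome, heights in the intermediate were 84, 43, 66, 41, 47 and 54, and in ESC 48, 29, 161, 46, 38 and 62. The nearest iPSC peaks stood 27.1 to 45.2 kb away and the nearest MEF peaks 2.48 to 12.4 kb. The series depends on low peaks. The region on chr11:107355311-107356930 was no longer a member when heights under 10, or under 20, were left out. With the taller 50% of each list, that region and the one on chr11:107351131-107351860 were lost. A series of 4 lay inside Dysf, the membrane repair protein dysferlin, over 13.5 kb from chr6:84050751 to 84064210, with heights of 58, 78, 37 and 164 in the intermediate and 33, 33, 39 and 32 in ESC. Here the nearest iPSC peaks were 31.0 to 42.4 kb away and the nearest MEF peaks 1.38 to 9.48 kb.

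Counted per gene, the regions were thinly spread. Assigned to the nearest protein-coding gene within 100 kb, 3248 members fell to 2679 genes, 13.0% of 20665, and 2235 of these genes had only 1. Pitpnc1 had the most with 7 of its 41 regions. It was followed by Kazn, a cell junction and cornified envelope protein, with 6 of 37, and the cyclic AMP phosphodiesterase gene Pde4d with 6 of 127. The calcium sensor of vesicle fusion Syt7 had 5 of 17, and 4 of its other regions were open in the intermediate alone. Dysf had 5 of 35, Tead1, a DNA-binding partner of Yap, 5 of 44 and the transcription factor gene Camta1 5 of 70. Counts of 4 stood at Tmem132c, Dgkg and Car10, and 21 genes had 4 or more. Gene length ran from 64.4 kb for Syt7 to 1302 kb for Pde4d in these 10 genes.

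The 12 regions that ranked highest in both lists included a region far above the rest. A region inside Kctd16, an auxiliary subunit of GABA-B receptors, on chr18:40307901-40308800 had heights of 983 in the intermediate and 2390 in ESC, and the nearest iPSC peak, 22.4 kb away, had a height of 38. The next tallest member in ESC reached 198, near Olfr871, and the next in the intermediate 384, near Abhd17c. The other 11 had heights of 125 to 214 in the intermediate and 113 to 194 in ESC. One inside Hmgcll1, a ketogenic lyase gene, on chr9:76103961-76105680 had heights of 214 and 194. Another lay 15 bp from Gm1966 on chr7:106644661-106646050 with heights of 162 and 183 and tallest summits at the same position. Near Golga3, a Golgi protein gene, a region on chr5:110226941-110228560 had 182 and 115, and a region over Tmem125 on chr4:118542531-118544690 had 136 and 124. Of the remaining 7, those near Sv2c, Khdrbs1, Cd86 and Ric8b lay 6.05 to 55.6 kb from the gene, Gm45988 was 93.9 kb away, and the nearest coding genes of the last pair, Palmd and 4931417E11Rik, were over 100 kb away.

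A member lay within 1 kb of an end of 305 protein-coding genes, 1.48% of all. Of these, 214 also had a MEF or iPSC peak within 1 kb of an end and 91 had none. Among the 91, ordered by the smaller of the ranks in both lists, the first were Gm1966 and then 1700001C19Rik and AI661453, a pair that shares a region on chr17:47436071-47437540 where heights were 152 (intermediate) and 98 (ESC). Epgn, an epidermal growth factor family ligand, followed with 142 and 92 on chr5:91034941-91036050. The amino acid receptor gene Gprc6a had 91 and 90 on chr10:51614771-51616310, and Scp2, a peroxisomal sterol carrier, had 74 and 57 on chr4:108145321-108146320. Tmem79, a membrane protein of skin, had 238 and 50 on chr3:88333411-88335000, with a MEF peak of height 84 at 0.471 kb and an iPSC peak of height 57 at 0.731 kb. It was not a member when peaks at most 100 bp apart were joined. Abca12, a lipid transporter of keratinocytes, had 53 and 48, and H2-Eb2, of the class II histocompatibility cluster, had 53 and 69. Ttc23l, Lrrc37a and Tmem248 complete the first 12 in this order.

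Promoter windows under the regions were poorer in CpG than promoter windows as a whole. In 114 windows of 106 genes, the region with the largest overlap was a member. Any overlap counted, and it was 5 of 300 bases at Gm11515 and 12 at 1 window of Ptpn7. The tallest summit lay within 300 bp of the start in 78 windows in the intermediate and 74 in ESC. Their median G+C content was 53.5% and their median ratio of observed to expected CpG was 0.29, against 62.3% and 0.79 for windows under regions open in all 4 libraries. Over all windows the medians were 53% and 0.39, so G+C content was close to that of all windows. The ratio exceeded 0.6 in 22 windows, 19.3% (13.1 to 27.5). That share was 3.39% (1.99 to 5.71) for intermediate-only, 6.09% (2.98 to 12.0) for intermediate and iPSC only, 30.4% (25.3 to 36.0) for ESC-only and 35.0% (31.8 to 38.4) for regions shared with both pluripotent libraries. It was 2.64% in windows under no region and 36.4% in all windows. Several windows of 1 gene can share sequence.

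**Figure D5:**
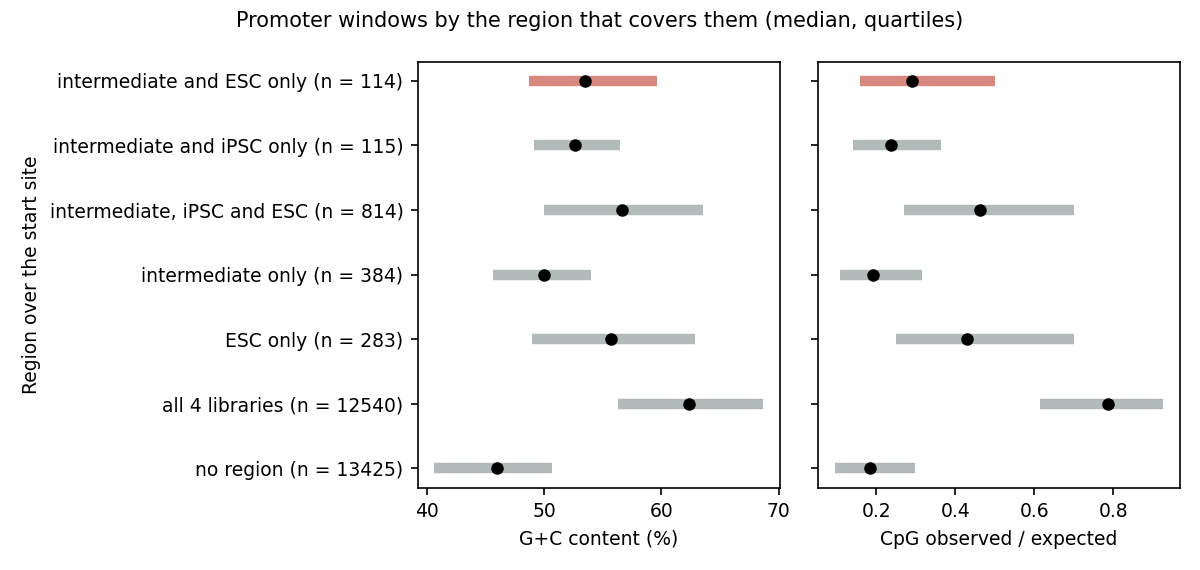
G+C content in percent (left) and ratio of observed to expected CpG (right) of RefSeq promoter windows. Windows are grouped by the region with the largest overlap (vertical axis, n windows). Points are medians and bars run between quartiles. Windows under intermediate-and-ESC-only regions have a median ratio of 0.29, between 0.19 for intermediate-only and 0.43 for ESC-only windows.

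Letters of 13 motifs were searched on both strands of each window. Besides the 4 in capitals above, factors of the Sox family were searched as ACAATGG and, in a second form, as CATTGTT. The nuclear receptor Esrrb was searched as TCAAGGTCA, the Tead factors of Hippo signalling as GGAATG, and Runx factors as TGTGGT. Tfap2 factors were searched as GCCNNNGGC, the E-box of helix-loop-helix factors as CACGTG, and part of the site of the insulator protein Ctcf as AGGGGGCG. Zic zinc finger factors were searched as CAGCAGG and Gata factors as AGATAA. Matches of different motifs overlapped in 4 of the 114 windows. The octamer printed above was in 6 of 114 windows under members, 5.26% (2.43 to 11.01), and in 1.75% (1.61 to 1.90) of all 31396 windows. It was in 2.61% (0.891 to 7.39) of windows under regions shared with iPSC only, 2.95% (1.99 to 4.35) under those shared with iPSC and ESC, 2.34% under intermediate-only and 1.77% under ESC-only regions. AP-1 letters were in 14 of the 114, 12.3% (7.46 to 19.6), with 15.4% (12.1 to 19.3) under intermediate-only regions, 6.36% (4.06 to 9.83) under ESC-only regions, 10.2% under no region and 7.84% of all windows. Klf letters were in 18.4% (12.4 to 26.5), against 15.7% of all windows, and Grhl letters in 5 of 114, 4.39% (1.89 to 9.86), against 2.09% of all. Zic letters were in 23 of 114, 20.2% (13.8 to 28.5), against 10.6% of all. They were in 15.7% (10.1 to 23.4) of windows under regions shared with iPSC only and 13.8% (11.6 to 16.3) under those shared with iPSC and ESC. The shares were 15.4% (12.1 to 19.3) under intermediate-only and 14.8% (11.2 to 19.5) under ESC-only regions. Tfap2 letters were in 11.4% (6.79 to 18.5), against 16.7% of all. Runx letters were in 19.3% against 16.7%, Tead letters in 17.5% against 14.6%, and Gata letters in 12.3% against 11.2%. Sox letters were in 7.02% against 6.26%, E-box letters in 6.14% against 7.14%, Ctcf letters in 3.51% against 6.11%, and Esrrb letters in 1 of 114 windows against 0.417%. Intervals for the members overlap those of the other region classes named for the octamer and for Zic letters. A match is a run of letters and says nothing of binding, and regions away from start sites were not searched.

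At core pluripotency genes 10 of 359 regions were members, 2.79% (1.52 to 5.05), beside 2.20% over all regions. This share and those of the lists below count all regions at the genes, also those open in MEF or iPSC, which the rule bars. Shares among regions closed in MEF were not computed for the lists. Of 28 genes, 8 were nearest to a member, 28.6%, beside 13.0% of all protein-coding genes, which differ from the list in their number of regions. Regions open in the intermediate, iPSC and ESC numbered 57 of the 359, 15.9% (12.5 to 20.02), beside 5.88% over all regions. The genes not nearest to any member within 100 kb included Sox2, Klf4, Nanog and Pou5f1, which encodes Oct4. At Sall4, a zinc finger factor of the pluripotency network, a region inside the gene on chr2:168760771-168763060 had heights of 122 in the intermediate and 47 in ESC. Prdm14, a repressor that guards the naive state, had one 53.0 kb away with heights of 54 and 54, and Nr5a2, a nuclear receptor that activates Pou5f1, one 42.4 kb away with 84 and 29. Esrrb, a naive-state nuclear receptor, had one inside the gene with 66 and 24. Tdgf1, the Nodal co-receptor Cripto, had 2 of its 3 regions in the class, with 29 and 35 in the taller. Tet2, which oxidises methylated DNA, had 2 of 39. The region at Dppa3 stood 271 bp from an iPSC peak of height 15, and the one at Utf1 221 bp from a MEF peak of height 33.

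At the Nodal gene the region over the start site was open in the intermediate and ESC only, under the 10 bp joining used here. Nodal is a TGF-beta family ligand of the early embryo. The region over its start, chr10:61417421-61419040, had heights of 45 in the intermediate and 65 in ESC, and MEF and iPSC had no peak in it. A second member 7.31 kb away on chr10:61410071-61410660 had 36 and 42. Between them, chr10:61415401-61417350 was open in iPSC as well, where intermediate, iPSC and ESC heights were 49, 54 and 122, and its iPSC peak lay 0.821 kb from the region over the start. The 2 regions stood 71 bp apart, and when peaks at most 100 bp apart were joined they merged and the region over the start was no longer a member. Inside the gene, iPSC and ESC shared a further region with 45 and 27, and MEF alone had one with 39.

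Genes of LIF, FGF, Wnt and Nodal signalling had 10 members among 338 regions, 2.96% (1.61 to 5.36), beside 2.20% over all regions. Of 19 genes, 7 were nearest to a member, 36.8%, beside 13.0% of all protein-coding genes. All genes differ from the list in their number of regions, and fibroblast genes had 18.5%. Spry2, a feedback inhibitor of FGF signalling, had a region 28.9 kb away on chr14:105861791-105863000 where the intermediate reached 200 and ESC 73. An iPSC peak of height 221 stood 0.371 kb from it. Lifr, the LIF receptor, had one 33.2 kb away with 124 and 42, and Dusp6, a phosphatase that ends ERK signalling, one 25.1 kb away with 114 and 46, with the nearest iPSC peaks 24.1 and 4.13 kb away. The tallest members at Il6st, Tcf7l1 and Id2 had heights of 34 to 45 in the intermediate and 24 to 44 in ESC. Genes of primed pluripotency had 3 members in 184 regions, 1.63%, beside 2.20% over all regions. Of these, the one inside Lef1, a Wnt-responsive factor, stood out in height with 138 and 82 on chr3:131142931-131144980. The others were at Etv5, with 63 and 29, and at Dnmt3a, a DNA methyltransferase, with 31 and 26.

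Epithelial genes held 8 members among 122 regions, 6.56% (3.36 to 12.4), beside 2.20% over all regions. MEF had gene-end peaks at 3 of 14 epithelial markers, and a list with few MEF sites can have a higher share by the rule alone. The same list held 18 regions open in the intermediate, iPSC and ESC, 14.8% (9.54 to 22.1) beside 5.88% over all, and 26 open in the intermediate alone, 21.3% (15.0 to 29.4) beside 14.7%. Of 14 genes, 6 were nearest to a member, 42.9%, beside 13.0% of all protein-coding genes, which differ from the list in their number of regions. A member lay at a gene end of 2 of the 14, beside 1.48% of all protein-coding genes. The region over the start of Rab25, a small GTPase of epithelial recycling endosomes, on chr3:88548011-88549010 had heights of 36 in the intermediate and 39 in ESC, and the nearest iPSC and MEF peaks were 3.31 and 3.24 kb away. Ovol1, a zinc finger factor of epithelial differentiation, had 2 of its 3 regions in the class, and the one at its end on chr19:5560421-5561590 had 91 and 27. Grhl2, which activates epithelial junction genes, had 2 of 29, the taller with 40 and 45. Cdh1, E-cadherin, had one inside the gene with 48 and 60, and the nearest iPSC and MEF peaks were both 0.661 kb away. Dsp, a desmosome component, had one with 38 and 42, and Epcam one with 55 and 27. The list was chosen with earlier results of these libraries known, and the count is a description.

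Fibroblast genes had 5 members in 443 regions, 1.13% (0.483 to 2.61), beside 2.20% over all regions, which also stands beside the other lists here. MEF had gene-end peaks at 26 of 27 fibroblast markers, and the rule bars regions open in MEF from membership. A low share at these genes is therefore partly set by the rule. The region inside Snai1, a factor of epithelial-mesenchymal transition, had heights of 61 and 55, with a MEF peak of height 42 at 0.391 kb. Zeb2, Mmp2 and Cdh2 had one each with intermediate heights of 41 to 57, and the one near Prrx1 is the lowest member given above. Neural genes had 6 in 238, 2.52% (1.16 to 5.39), at Sox1, Sox9, Sox11, Sox21 and Hes1, with the tallest 75.7 kb from Sox11 at 113 in the intermediate and 39 in ESC. Mesoderm and endoderm genes had 3 in 130, 2.31%, at Eomes, Foxa2 and Cer1. The one near Foxa2 stood 0.221 kb from an iPSC peak of height 355. Trophoblast genes had 2 in 83, 2.41%, at Elf5 and Tfap2c, and germline genes 2 in 60, 3.33%, at Tex101 and Piwil2, where the region inside Piwil2, of the piRNA pathway, had 80 and 47.

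Genes of the NuRD and Polycomb complexes had 4 members in 130 regions, 3.08% (1.20 to 7.64), beside 2.20% over all regions. NuRD is a chromatin remodelling and deacetylase complex, and Mbd3, altered in the MEF and iPSC strain, is a subunit of it. Mbd3 had no member. Mta3, another subunit, had 2, the taller on chr17:83750001-83751310 at 116 for the intermediate and 51 for ESC. Gatad2b had one with 33 and 41, and Suz12, a Polycomb subunit, one with 62 and 50. Markers of cells that a culture could hold had 1 member in 36 regions for myeloid genes, at Ptprc, and 4 in 76 for endothelial genes, 5.26% (2.07 to 12.8), at Pecam1, Tek and Vwf. Their part in other counts was not tested.

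Imprinted genes had 3 members among 183 regions, 1.64% (0.559 to 4.71), beside 2.20% over all regions. Imprinted genes are read from 1 parental copy, and the Dlk1 to Meg3 interval holds the control region of its domain. In that interval, chr12:109525351-109526720 was open in the intermediate and ESC only, with heights of 66 and 30, 62.0 kb from Dlk1 and 14.3 kb from Meg3; the nearest protein-coding gene was Rtl1. The nearest iPSC peak was 0.651 kb away. It covers the start of Gm34081, whose sequence is printed above. The neighbouring chr12:109527251-109527900 was open in the intermediate and iPSC, with 44 and 53, and chr12:109528691-109530120 in iPSC and ESC, with 48 and 53. MEF had no peak in any of these 3, and in the interval its only peak lay on chr12:109499951-109500630 with a height of 26, where iPSC had 30. The other imprinted members lay inside Snrpn, with 161 and 59 on chr7:60255281-60256500, and inside Gnas, with 36 and 20.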

How the data were processed

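Peak lists of the 4 libraries were used as deposited. Tools listed in the submitters' processing notes are Picard, Bowtie2, CASAVA 1.8.2 and MACS 1.4.2-1, with build mm10 and no roles. Their parameters, which program, if any, divided peaks, and which gave heights were not given in the sources used here. Per the file headers each peak has a start, an end, a summit and a height, a whole-number signal of at least 5 in the deposited lists; its scaling is not stated. Read depth is unknown. Regions were built with Python 3.11.15 and pandas 2.3.3, on the 19 autosomes, and joining and gene assignment were tested on simulated data. Gene positions (no strand) and promoter sequences came from RefSeq GRCm38.p6, so a gene end is either end of a gene. The orientation of the promoter sequences was checked on 1558 overlapping windows of opposite strand, which all matched. Assignment was to the nearest protein-coding gene body within 100 kb. No test was run, since each group has 1 library, and shares carry Wilson 95% intervals.

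The members, gene lists and motifs were chosen with earlier results of these data known. Genes named are the 12 regions with the highest smaller rank, the 10 genes with the most members, list genes with a member, and the 12 gene-end members with the highest smaller rank without a MEF or iPSC peak there. Others (the region series inside Pitpnc1 and Dysf, octamer promoters, the Dlk1 interval, Olfr871, Abhd17c, microRNAs, Zfp genes) were chosen after their values were seen. A genome was not used, so motifs were searched in promoter windows only. The result of 1 gene list is not reported here.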

Additional observations from a re-analysis of the deposited data

Results flagged for a closer look

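The X chromosome was left out of the comparisons above. By the same rule it held 107 regions open in the intermediate and ESC only, of 4365 regions, 2.45% (Wilson 95% interval 2.03 to 2.95). The share over the autosomes, 2.20%, lies within that interval. The count is given because this chromosome entered no comparison.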

How the results depend on the processing

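No paired analysis was possible because each group has 1 library. The number of regions stayed within 1.5 times of 3707 under every alternative run, from 3335 without MEF or iPSC peaks within 500 bp to 3993 when only peaks sharing at least 1 bp were joined. Joining only peaks that share 1 bp brought the share of ESC regions without an iPSC or MEF peak that the intermediate held from 24.1% to 16.4%, the median width to 870 bp and the share of protein-coding genes with a member from 13.0% to 13.7%. Joining peaks at most 100 bp apart gave 25.1% and 970 bp. With the taller 50% of each list these were 27.6%, 840 bp and 12.2%, and 8.85% of members lay within 1 kb of a gene end. Leaving out heights under 10 gave a width of 900 bp, and leaving out heights under 20, added after the data were seen, gave 25.0% and 830 bp. A gene-end window of 2.5 kb held 14.2% of members. Assignment within 20 kb gave 10.7% of genes, and removing members with a MEF or iPSC peak within 500 bp gave 11.8%. Of 206 recomputed counts at named genes, lists and tallest regions, 186 stayed within 1.5 times. With the taller 50% of each list, 11 of 26 did not, among them Pitpnc1 with 4 in place of 7 and Tead1 and Syt7 with 2 each in place of 5. With assignment within 20 kb, member counts were 6 in place of 10 at core pluripotency genes, 5 in place of 10 at LIF, FGF, Wnt and Nodal genes, 1 in place of 6 at neural genes, 3 in place of 5 at fibroblast genes, and 1 each in place of 3 at mesoderm and endoderm genes and of 2 at trophoblast genes. Of the 53 list-gene regions checked singly, 2 were lost with joining at 100 bp (Nodal and Prrx1), 9 without MEF or iPSC peaks within 500 bp and 24 with the taller 50% of each list. The alternative window for motifs around summits was not run, since it needs a genome sequence. Read depth is unknown, so a site without a listed peak has no upper limit on its signal, and 1 library per group gives no replicate error.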

Other observations

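Of 919 autosomal RefSeq microRNA hairpins, 10 were within 2 kb of a member, or 2.70 hairpins per 1000 regions. The rate was 2.55 per 1000 for intermediate-only and 2.91 for ESC-only regions, 4.44 for regions open in the intermediate, iPSC and ESC, and 5.601 for those shared with iPSC only, where 17 hairpins were counted. The 3 shown here were chosen after their values were seen, as members of well-studied families, with the seed (bases 2 to 8) in capitals.
mmu-miR-34a-5p: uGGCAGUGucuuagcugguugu
mmu-miR-181b-5p: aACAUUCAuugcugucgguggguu
mmu-miR-32-5p: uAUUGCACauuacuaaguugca
The hairpin of miR-34a, a microRNA induced by p53, is on chr4:150068454-150068555, 1.11 kb from a region whose intermediate height was 42 and ESC height 44. Mir181b-2 lies 1.18 kb from a region with 75 and 35, and Mir32 1.88 kb from a region with 49 and 33. These 3 have different seeds.

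Zinc finger genes named Zfp were the nearest gene for 2.12% (1.68 to 2.68) of members assigned within 100 kb and for 2.03% (1.77 to 2.33) of ESC-only regions. The share was 1.11% (0.781 to 1.58) for regions that the intermediate shared with iPSC only and 1.56% (1.32 to 1.85) for those shared with iPSC and ESC. It was 1.38% (1.23 to 1.54) for intermediate-only regions and 2.59% (2.37 to 2.84) for regions open in all 4 libraries. This gene group was chosen after its values were seen.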
